A study of Homo sapiens with 4 samples.

Results

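In all, 10 genes, called partners here, were followed in U2OS cells, a human osteosarcoma line. The cells were transfected with BRPF3 siRNA or a non-targeting control siRNA. The genes encode histone acetyltransferases of the MYST family (KAT5, KAT6B, KAT7 and KAT8) or other subunits of MYST complexes. Not all of them share a complex with BRPF3. They were taken by gene symbol: every probe set whose only symbol in the platform annotation is KAT7, MEAF6, JADE1, JADE2, JADE3, KAT6B, KAT5, KAT8, EPC1 or EPC2. Each of the 10 genes had 1 probe set, so 10 of the 16098 named probe sets, standing for 10 of 14884 named genes, make up the group. All 10 were bright enough to be tested, among 10696 tested genes. The control group held 2 arrays of cells given the control siRNA, and the BRPF3 siRNA group held 2 arrays of cells given siRNA against BRPF3. Both groups were the same line, transfected at 50 nM with a lipid reagent and harvested 48 hours later. The labels call the arrays of a group biological replicates without saying how separate the cultures were. The p-values therefore rest only on the spread between these arrays, of the gene itself and, through limma's moderation, of all tested genes. The number of arrays limits the precision. U2OS is a single long-cultured tumour line, and 1 siRNA condition against BRPF3 was analysed here.

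BRPF3 itself has no probe set named for it alone in this annotation and was not analysed here, so the knockdown was not checked. The same holds for the other scaffolds BRPF1 and BRD1, for KAT6A and for ING1 to ING5, so 0 of the 9 listed genes of that set could be followed. Of 9 listed mesenchymal and bone markers 4 were named. VIM and FN1 were bright, RUNX2 was above the intensity bound of 4.59 (log2, the median of all probe sets), and TWIST1 lay under it at 2.89 to 3.47. The mean level of these 4 markers was 7.62 to 7.64 with control siRNA and 7.73 to 7.74 with BRPF3 siRNA. Of the 3 tested, VIM was higher (0.13 ± 0.08) and RUNX2 (-0.16 ± 0.09) and FN1 (-0.03 ± 0.08) lower after BRPF3 siRNA. The higher mean therefore rests on TWIST1, which was under the bound and not tested. Among markers of other cells, the mean of 5 epithelial markers was 7.27 to 7.39 and then 7.15 to 7.21. The mean of 2 leukocyte markers was 5.03 to 5.24 and then 4.69 to 4.80, with CD14 under the bound. That of 4 endothelial markers was 4.95 to 5.08 and then 4.87 to 4.88, with PECAM1 and KDR under the bound. The 2 tested endothelial markers differed by -0.03 ± 0.10 (ERG) and -0.10 ± 0.08 (CLDN5). Most of the lower endothelial mean therefore lies in PECAM1 and KDR, which were not tested. In limma's test KRT18 (-0.49 ± 0.09, adjusted p = 0.0231) was the 1 of 5 tested epithelial markers that fell, LAPTM5 (-0.88 ± 0.13, adjusted p = 0.0170) the 1 tested leukocyte marker, and 0 of 3 mesenchymal and 0 of 2 endothelial markers passed, where 15.8% of all tested genes were called. At an unadjusted p under 0.05 were 3 of the 5 epithelial markers, KRT18, CLDN4 (-0.53 ± 0.15, adjusted p = 0.0690) and, in the other direction, EPCAM (0.27 ± 0.08, adjusted p = 0.0754), the leukocyte marker LAPTM5, and 0 of the mesenchymal and endothelial markers. The part of these shifts in the results below was not tested.

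MYST enzymes add acetyl groups to histone lysines and work in complexes whose other subunits choose the target. KAT7 (HBO1) binds either a BRPF scaffold, which directs it to histone H3, or a JADE scaffold, which directs it to histone H4, together with an ING reader and the small subunit MEAF6. KAT6B pairs with BRPF scaffolds, KAT5 (TIP60) with EPC1 or EPC2 in the large TIP60 complex, and KAT8 (MOF) with the MSL or NSL subunits. KAT7 complexes are known for their part in histone acetylation at replication origins and transcribed genes. The comparison asks whether transcripts of these partners differ when BRPF3 is targeted.

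The 1 partner called changed was EPC2, so its upstream sequence is shown beside that of its paralog EPC1, which was not called. Both are the 250 bases before the annotated start site from RefSeq (GRCh38.p14), 5′ to 3′ on the gene's own strand, with EPC2 at chr2:148644501-148644750 (plus strand) and EPC1 at chr10:32378770-32379019 (minus strand). Capitals mark matches, on either strand, to the short motifs searched.
EPC2: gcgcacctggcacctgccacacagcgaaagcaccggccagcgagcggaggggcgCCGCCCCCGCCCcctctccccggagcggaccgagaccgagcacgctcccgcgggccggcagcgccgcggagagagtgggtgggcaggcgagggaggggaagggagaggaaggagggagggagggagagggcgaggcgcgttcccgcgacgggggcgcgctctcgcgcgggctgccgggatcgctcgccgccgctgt
EPC1: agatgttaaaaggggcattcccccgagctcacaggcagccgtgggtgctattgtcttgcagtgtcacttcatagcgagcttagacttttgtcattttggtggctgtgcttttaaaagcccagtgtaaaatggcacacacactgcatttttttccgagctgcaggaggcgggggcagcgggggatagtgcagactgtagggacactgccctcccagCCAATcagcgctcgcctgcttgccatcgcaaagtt
The EPC2 stretch is 78.0% G or C with 36 CpG dinucleotides and holds 2 adjoining GC boxes (GGGCGG, read on the minus strand). The EPC1 stretch is 53.6% G or C with 9 CpG and holds 1 CCAAT box. Over 27305 promoters of the same length the medians were 58.0% and 11 CpG. A GC box was found in 42.3% of all promoters and in 5 of the 9 partner promoters in the table (MEAF6, JADE1, JADE2, JADE3 and EPC2), and a CCAAT box in 33.0% and in EPC1 alone. The ETS core CCGGAAG was found in 8.82% of all promoters and in KAT7, MEAF6 and KAT5, and the E-box CACGTG in 6.49% and in KAT5. GCATGCGC (2.81% of all promoters), AAGATGG (3.77%), TATAAA (11.1%) and TGACGTCA (1.77%) were found in none of the 9. The motifs did not overlap each other in these windows. These are letter matches and were not tested against the expression values.

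After BRPF3 siRNA, EPC2 fell, while KAT7 and the 8 other partners did not pass the test. By limma, with p-values adjusted by Benjamini-Hochberg over all tested genes and a threshold of 0.05, 1 of the 10 partners fell and 0 rose. At an unadjusted p under 0.05 the number was 3 (EPC2, JADE1 and JADE3). Over all 10696 tested genes 15.8% were called, 6.32% risen and 9.44% fallen, so 1 of 10 is near the background. The median difference of the partners was 0.02 on the log2 scale and their median size was 0.07, against -0.03 and 0.17 over all tested genes. The control and BRPF3 siRNA arrays did not overlap for 5 partners, 3 of them higher and 2 lower. Over all tested genes this held for 63.2%, 27.3% higher and 35.9% lower. Falls made up 59.9% of all calls on the values as deposited, 48.4% with quantile and 49.0% with cyclic loess normalization.

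**Figure D1:**
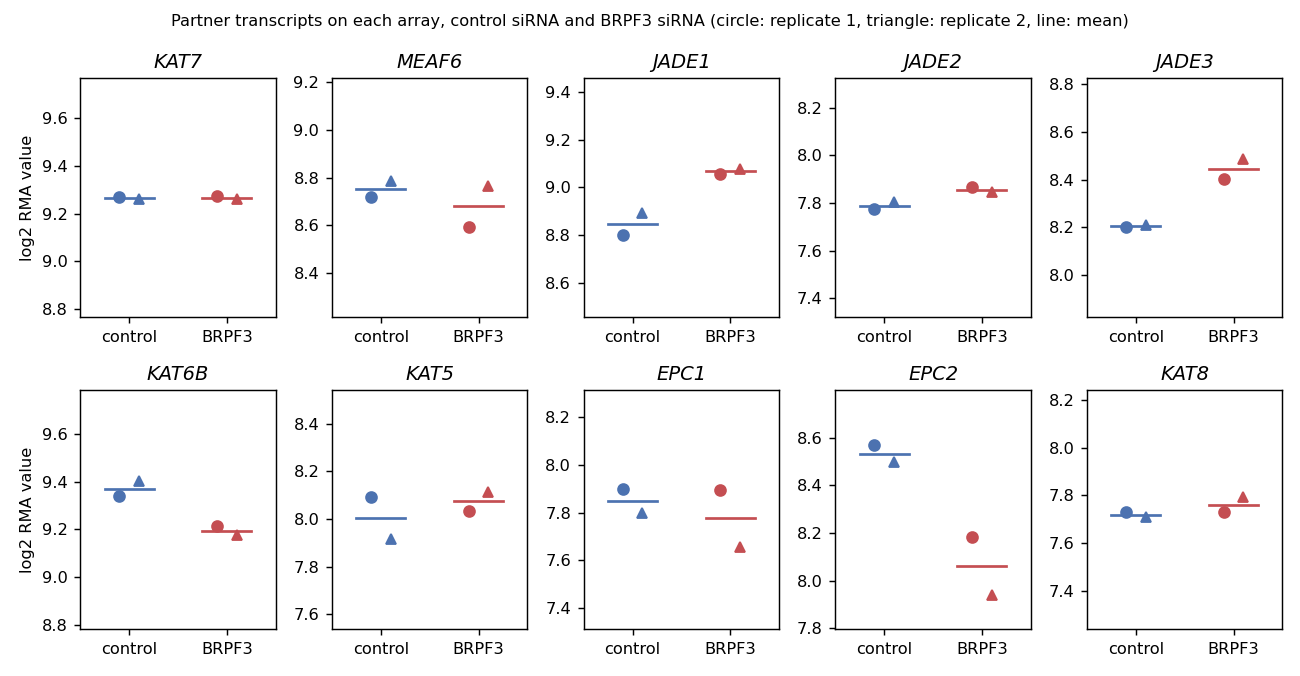
Log2 RMA values of the 10 partner transcripts (vertical axes, each spanning 1 log2 unit) on the control siRNA and BRPF3 siRNA arrays. Circles are replicate 1, triangles replicate 2 and lines the means of 2 arrays. EPC2 is lower on both BRPF3 siRNA arrays (8.19 and 7.94) than on its own control arrays, KAT7 is level across all 4, and JADE1 and JADE3 are higher on both BRPF3 siRNA arrays.

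KAT7, the catalytic subunit that BRPF3 and the JADE proteins share, had log2 values of 9.27 and 9.26 with control siRNA and 9.27 and 9.26 with BRPF3 siRNA. The groups overlapped. The difference had a 95% interval of -0.19 to 0.19 (limma), which spans 0.878-fold to 1.14-fold of the control level. Its SD between arrays was 0.01 in each group, far under the moderated SE of 0.08, which is drawn towards the spread of all genes. After quantile or cyclic loess normalization the difference was 0.07 in each case, so its sign depends on the scaling.

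MEAF6, the small subunit common to the KAT7, KAT6 and TIP60 complexes, had values of 8.72 and 8.78 with control siRNA and 8.59 and 8.77 with BRPF3 siRNA. The second BRPF3 siRNA array lay between the controls, so the groups overlapped. The interval of its difference was -0.30 to 0.16.

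The 3 JADE genes encode the scaffolds that take the place of a BRPF protein in KAT7 complexes. JADE1 had values of 8.80 and 8.89 with control siRNA and 9.06 and 9.08 with BRPF3 siRNA. JADE2 had 7.77 and 7.81 and then 7.87 and 7.84, and JADE3 had 8.20 and 8.21 and then 8.40 and 8.49. For each of them both BRPF3 siRNA arrays lay above both control arrays, by a gap of 0.16 for JADE1, 0.04 for JADE2 and 0.20 for JADE3. Of all tested genes 27.3% were separated in this direction. None passed the test over all genes. The difference of JADE3 was 0.24 ± 0.08 (moderated SE from limma, here and below with n = 2 arrays in each group, adjusted p = 0.0944), or 1.18-fold with an interval of 1.03-fold to 1.35-fold. That of JADE1 was 0.22 ± 0.08 (adjusted p = 0.118), or 1.16-fold with an interval of 1.01-fold to 1.34-fold, and that of JADE2 was 0.07 ± 0.08 (adjusted p = 0.585), with an interval of 0.918-fold to 1.19-fold. With an intensity trend in the variance prior both JADE1 (adjusted p = 0.0408) and JADE3 (adjusted p = 0.0407) passed, and JADE3 also passed among genes above the 75th percentile of intensity (adjusted p = 0.0370). The difference of each JADE gene was above 0 under all 16 alternative settings. It ran from 0.17 to 0.29 for JADE1, 0.05 to 0.12 for JADE2 and 0.20 to 0.30 for JADE3. Only the other normalizations could have turned its sign. Leaving out 1 array could not, since the arrays did not overlap, and the rest changed only the SE, the adjusted p or the threshold.

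The other catalytic subunits were followed likewise. KAT6B, the acetyltransferase built on BRPF scaffolds and a relative of KAT6A, had values of 9.34 and 9.40 with control siRNA and 9.21 and 9.17 with BRPF3 siRNA. Both BRPF3 siRNA arrays lay under both controls by 0.13. Its difference of -0.18 ± 0.08 did not pass (limma, adjusted p = 0.175), with an interval of 0.773-fold to 1.01-fold of control. KAT5, the catalytic subunit of the TIP60 complex, had values of 8.09 and 7.92 and then 8.04 and 8.12. Its 2 control arrays stood 0.18 apart, the widest control gap among the 10 partners, and the groups overlapped. KAT8, an acetyltransferase of histone H4, had 7.73 and 7.71 and then 7.73 and 7.79, also overlapping. The differences were 0.07 ± 0.09 for KAT5 (adjusted p = 0.632, interval -0.16 to 0.31) and 0.04 ± 0.08 for KAT8 (adjusted p = 0.746, interval -0.15 to 0.23).

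EPC1 and EPC2, homologs of the fly Enhancer of Polycomb, are alternative scaffolds that hold KAT5 in the TIP60 complex. EPC2 had values of 8.57 and 8.50 with control siRNA and 8.19 and 7.94 with BRPF3 siRNA, a separation of 0.31 between the groups. It fell by 0.47 ± 0.11 on the log2 scale (limma, adjusted p = 0.0393), a 1.39-fold fall with an interval of 0.602-fold to 0.866-fold of the control level. Among all tested genes 90.4% had a smaller difference in size. The SD of EPC2 was 0.17 between the BRPF3 siRNA arrays and 0.05 between the controls. The arrays measured whole cultures, so fewer cells with the transcript and less transcript per cell cannot be told apart. EPC1 had 7.90 and 7.80 with control siRNA and 7.90 and 7.66 with BRPF3 siRNA, with overlapping groups. Its difference was -0.07 ± 0.11 (adjusted p = 0.669), with an interval of -0.34 to 0.19.

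The difference between the paralogs was taken within each array. The log2 value of EPC2 minus that of EPC1 was 0.67 and 0.70 with control siRNA and 0.29 and 0.29 with BRPF3 siRNA. The offset itself carries no level, since it compares different probe sets, but it was lower by 0.40 after BRPF3 siRNA. Arrays of a group differed in it by 0.03 (control) and less than 0.01 (BRPF3 siRNA). Both genes were lower on the second array than on the first in each group, and that spread cancels in the within-array value. The exact two-sided permutation p was 0.333, the smallest that 2 arrays against 2 allow, and 0.444 adjusted over the 4 pairs compared. Among the JADE genes, JADE1 minus JADE2 was higher by 0.15 and JADE2 minus JADE3 lower by 0.17 after BRPF3 siRNA, each with separated arrays and the same exact permutation p of 0.333. JADE1 minus JADE3 differed by -0.02 with overlapping arrays (exact permutation p = 0.667).

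**Figure D2:**
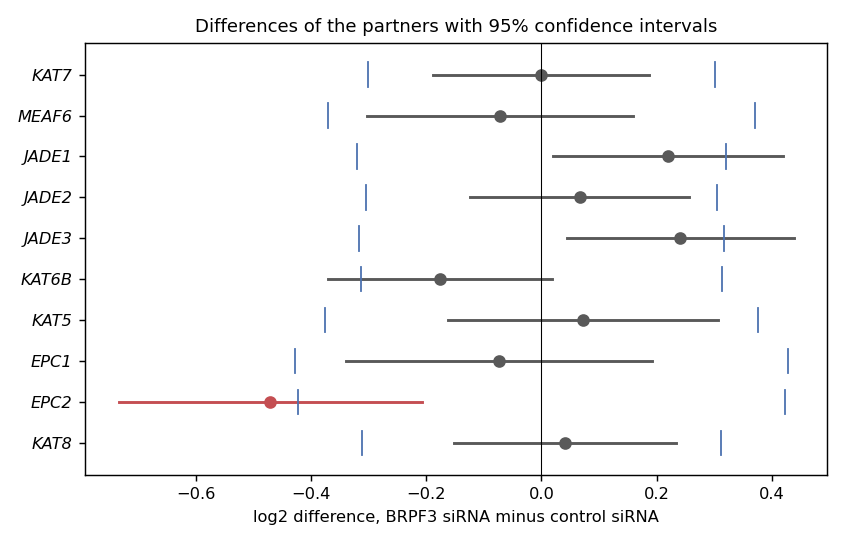
Log2 difference, BRPF3 siRNA minus control siRNA, of each partner (points) with the 95% confidence interval from limma (bars). Blue ticks mark the smallest size that would have passed the test over all genes at that gene's SE. EPC2, in red, lies past its tick at -0.42, and the other 9 points lie inside theirs.

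The observed difference needed to pass at this setting of the test differed little between partners. It is a pass line at the observed SE, and a true difference of that size may be missed. At the SE of each gene a difference of 0.30 for KAT7 and JADE2, and up to 0.43 for EPC1, would have passed, which is 1.23-fold to 1.35-fold. EPC2 passed with 0.47 where 0.42 was needed. These sizes hold for the untrended prior and all 10696 genes, and JADE1 and JADE3 passed with smaller differences under the settings named above.

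**Figure D3:**
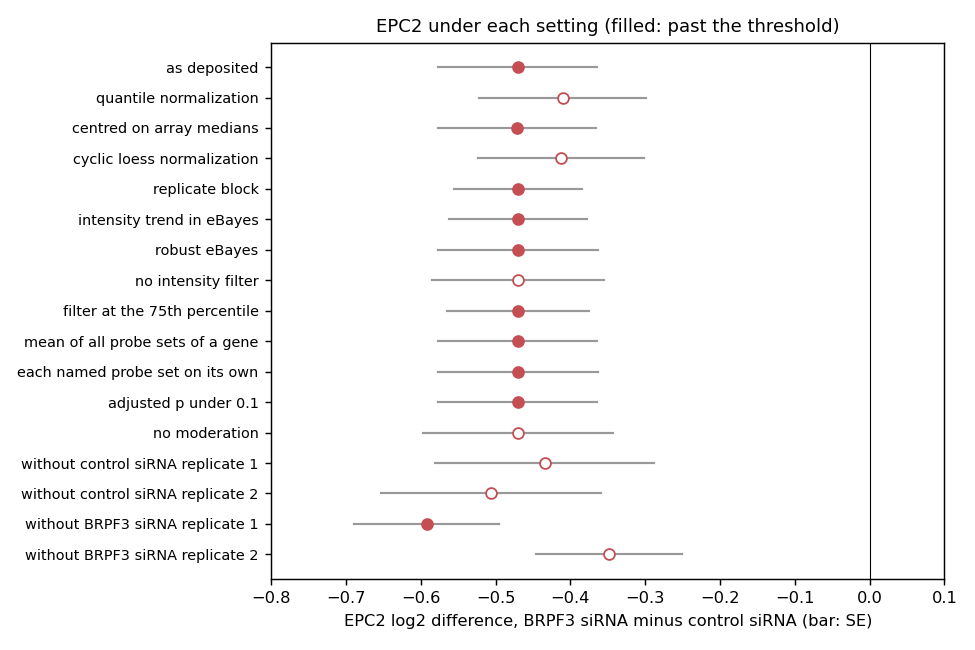
Log2 difference of EPC2 (points) with its SE (bars) under the deposited values and 16 alternative settings. Filled points passed the threshold of the setting and open points did not. All points lie below 0, between -0.59 and -0.35, and 7 are open.

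The call of EPC2 ended under 7 of 16 alternative settings, all with a difference below 0. Only the other normalizations could have turned that sign. Leaving out 1 array could not, since the groups did not overlap, and the rest changed only the SE, the adjusted p or the threshold. The difference was -0.41 ± 0.11 after quantile normalization (limma, adjusted p = 0.0658) and after cyclic loess normalization (adjusted p = 0.0636). The call also ended without an intensity filter (adjusted p = 0.0883), without moderation of the variance (adjusted p = 0.239), without control replicate 1 (-0.43, adjusted p = 0.180), without control replicate 2 (-0.51, adjusted p = 0.146) and without BRPF3 siRNA replicate 2 (-0.35, adjusted p = 0.0910). Without BRPF3 siRNA replicate 1 it held at -0.59 (adjusted p = 0.0433). The adjusted p-values ran from 0.00558 to 0.239 over the alternatives.

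The tested genes with the pattern most like EPC2 over the 4 arrays, by root mean square distance of values centred on each gene's own mean, were CTU2 (distance 0.01), C3orf33 (0.02) and SEPTIN10 (0.02). CTU2, a tRNA thiolation enzyme, had values of 7.34 and 7.28 with control siRNA and 6.96 and 6.74 with BRPF3 siRNA. SEPTIN10, a cytoskeletal GTPase, had 8.28 and 8.26 and then 7.92 and 7.65. C3orf33 had 5.70 and 5.62 and then 5.35 and 5.07. As with EPC2, the second BRPF3 siRNA array was the lowest of the 4 in each. CTU2 (-0.46 ± 0.10, adjusted p = 0.0382) and SEPTIN10 (-0.48 ± 0.11, adjusted p = 0.0392) fell, and C3orf33 (-0.45 ± 0.12, adjusted p = 0.0519) did not pass. The calls of CTU2 and SEPTIN10 ended under the same 7 settings as that of EPC2, among them without control replicate 1 (adjusted p = 0.176 and 0.170), without control replicate 2 (0.148 and 0.159) and without BRPF3 siRNA replicate 2 (0.0909 and 0.0839). These genes were picked for their likeness to EPC2 on the same arrays. Similar differences, and calls that end under the same settings, therefore follow from the choice. Over 4 arrays, likeness in this measure is a description.

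Of 13 other subunits of the TIP60 complex, in which EPC2, EPC1, KAT5 and MEAF6 also sit, 4 fell and 0 rose, where 9.44% of all tested genes fell (limma). RUVBL1 and RUVBL2, paired ATPases that also serve in other chromatin and assembly complexes, had control means of 8.82 and 10.77 and BRPF3 siRNA means of 8.24 and 10.40. RUVBL1 fell by 0.58 ± 0.08 (adjusted p = 0.0145) and RUVBL2 by 0.37 ± 0.09 (adjusted p = 0.0422). MRGBP, which links the MRG proteins to the complex, fell by 0.38 ± 0.08 (adjusted p = 0.0310). MORF4L2, an MRG protein close in sequence to MORF4L1, fell by 0.33 ± 0.08 (adjusted p = 0.0398), while MORF4L1 differed by -0.01 ± 0.08 (adjusted p = 0.922), and how far their probes tell the copies apart was not tested. The member highest by its moderated statistic, the ATPase EP400, differed by 0.17 ± 0.11 (adjusted p = 0.338), by 0.03 without control replicate 1, by 0.31 without control replicate 2 and by 0.29 with the mean of its probe sets. The difference was below 0 for 11 of the 13, with a median of -0.12, where 55.1% of all tested genes lay below 0 with a median of -0.03.

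RUVBL1 alone of these 4 also fell after quantile or cyclic loess normalization, where 10 of 13 differences lay below 0 and the list's median was -0.09 in both. It was also the 1 call left without an intensity filter, without BRPF3 siRNA replicate 1 and without BRPF3 siRNA replicate 2. Without control replicate 1, 0 of the 13 passed limma's adjusted test (4 at an unadjusted p under 0.05), and without control replicate 2 likewise 0 (5), as without moderation of the variance (6).

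**Figure D4:**
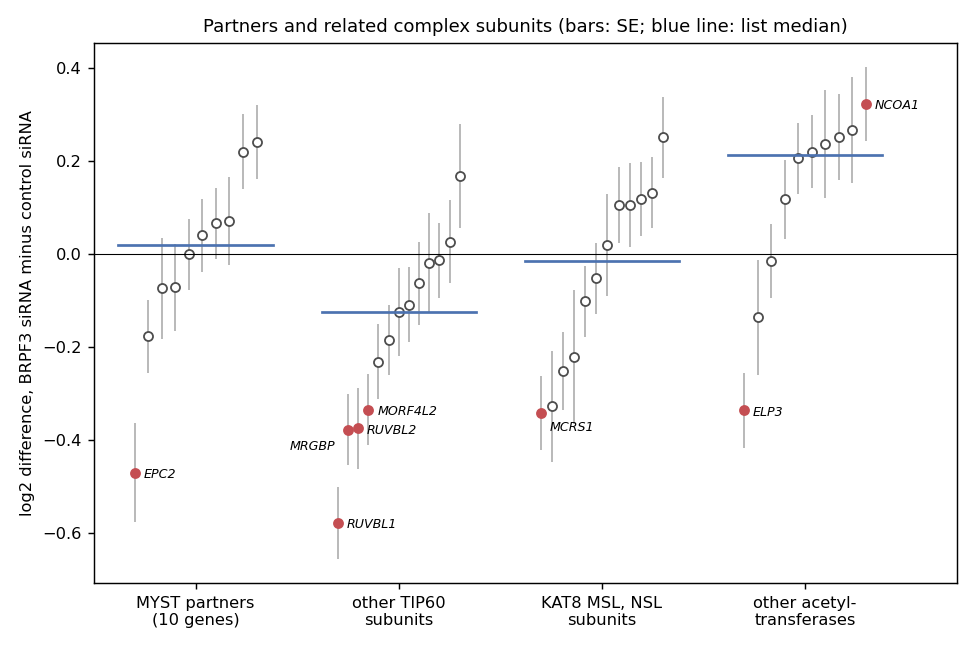
Log2 difference, BRPF3 siRNA minus control siRNA (vertical axis), of the 10 partners, 13 other TIP60 subunits, 12 MSL and NSL subunits and 10 acetyltransferases outside the MYST family. Points are genes sorted within each list, grey bars their SE, blue lines the list medians (0.02, -0.12, -0.02 and 0.21), and red points, with names, the genes that passed the test.

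Of 12 subunits of the KAT8 complexes MSL and NSL, 0 rose and 1 fell (limma), near or under the 9.44% of all tested genes that fell. MCRS1, an NSL subunit, had a control mean of 8.52 and a BRPF3 siRNA mean of 8.18 and fell by 0.34 ± 0.08 (adjusted p = 0.0426). HCFC1, a host cell factor bound by the NSL complex, was the highest by its moderated statistic at 0.25 ± 0.09 and did not pass (adjusted p = 0.103). Differences lay below 0 for 6 of the 12, with a median of -0.02, which turned to 0.02 with quantile and 0.03 with cyclic loess normalization. After quantile or cyclic loess normalization MCRS1 was no longer called and HCFC1 rose. MCRS1 also lost its call without an intensity filter (adjusted p = 0.0963) and without moderation (adjusted p = 0.160). Whichever of the 4 arrays was left out, 0 of the 12 passed limma's adjusted test, with 1 to 3 at an unadjusted p under 0.05 (1 and 2 without control replicates 1 and 2, and 3 without either BRPF3 siRNA array).

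Of 15 listed acetyltransferases outside the MYST family 10 were tested, of which 1 rose and 1 fell, near the 15.8% called among all tested genes (6.32% risen and 9.44% fallen). NCOA1, a nuclear receptor coactivator, had the highest moderated statistic (0.32 ± 0.08, limma adjusted p = 0.0470) and ELP3, the catalytic subunit of Elongator, the lowest (-0.34 ± 0.08, adjusted p = 0.0455). The median of these 10 was 0.21 and 3 lay below 0, against 0.02 and 5 of 10 for the MYST partners. Over all tested genes the median was -0.03 and 55.1% lay below 0. The arrays of 7 of the 10 were separated with BRPF3 siRNA higher and of 1 with it lower, against 27.3% and 35.9% of all tested genes. At an unadjusted p under 0.05 (limma) were 5 of the 10, against 3706 of all 10696 tested genes. After quantile or cyclic loess normalization NCOA1 remained called and ELP3 did not. Both lost their calls without an intensity filter (adjusted p = 0.103 for NCOA1 and 0.101 for ELP3) and without moderation (0.153 and 0.166). Neither was called with any of the 4 arrays left out, where 0 of the 10 passed and 2 to 5 had an unadjusted p under 0.05 (limma). Whether this list differs from the partners or from all tested genes was not tested.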

How the data were processed

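Total RNA of 4 U2OS samples was labelled with the WT PLUS chemistry and hybridised to Affymetrix whole-transcript arrays, 1 per sample, per the labels' protocols. The deposited table holds log2 values of 53617 probe sets made by the authors with RMA, per the submitters' processing notes. RMA corrects background, normalizes between arrays and summarises probes. Its version and settings, and how probe sets were defined, are not given in the sources. Normalization removes shifts common to all transcripts, and RMA compresses differences of dim probe sets.

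Values were used as deposited. Groups and replicate numbers came from the sample titles. Probe sets to which the platform annotation gives exactly 1 gene symbol were counted as named, 16098 in all. Any with several symbols were not counted as named. The gene identifiers of all 16098 matched RefSeq, with 0 symbols changed. For 779 genes with several probe sets the brightest was used, and genes with a mean under 4.59 were left out. The comparison used the limma package (3.58.1, under R 4.3.3; lmFit, then eBayes, no trend, not robust, two-sided, 2 residual and 3.81 prior degrees of freedom), adjusted over all tested genes. The procedure was tested on data simulated from limma's own fitted prior, so that check does not show how well the prior suits these arrays.

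The text names the 10 partners, the listed genes that passed, the highest and lowest listed gene by moderated t, and the 3 genes most like EPC2. EPCAM, CLDN4, MORF4L1, the promoters of EPC1 and EPC2 and the motifs were chosen after values were seen. Members and lists were chosen with earlier results of these data known. Promoter sequences are RefSeq's, GRCh38.p14. The promoter of KAT8 was not used here. Alternatives were other normalizations (quantile, median centring, cyclic loess), the replicate number as a block, a trend or robust prior, other intensity filters, other probe set rules, an adjusted p under 0.1, no moderation, and leaving out each array.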

Additional observations from a re-analysis of the deposited data

How the results depend on the processing

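The number of partners changed, 1 on the deposited values, was 0 after quantile and after cyclic loess normalization, with no intensity filter and with no moderation (limma, with 3, 3, 2 and 3 partners at an unadjusted p under 0.05). It was 3 with an intensity trend in eBayes, 2 with the filter at the 75th percentile and 2 at an adjusted p under 0.1. Leaving out an array gave 0 to 1 (1 partner at an unadjusted p under 0.05 in each set that gave 0), and it stayed 1 under the other settings. The number of all genes changed, 1686, became 409 when no intensity filter was set, 2645 with the trend, 1 with unmoderated variances and 2877 at the looser threshold of 0.1. Leaving out arrays gave 0 to 791 genes (2446 and 2477 at an unadjusted p under 0.05 without control replicates 1 and 2, which gave 0), on the assumption that the lone array of a group varies as the paired ones do. Uncalled differences near 0 changed sign. That of KAT7 was 0.0681 after quantile and 0.0722 after cyclic loess normalization, and -0.00778 to 0.00624 over the 4 sets with an array left out. Over the same sets the difference of MEAF6 lay between -0.158 and 0.0151, that of KAT5 between -0.0161 and 0.16 and that of EPC1 between -0.194 and 0.0465. With the replicate number as a block 1604 genes and 1 partner changed, EPC2 (adjusted p = 0.0366), while MORF4L2, MCRS1, NCOA1 and ELP3 lost their calls and C3orf33 gained one. Same-numbered arrays deviated together with a correlation of 0.14 over genes, and the labels do not say that a number marks a shared batch. The cause of these changes was not tested. The lists other than the partners were run under each setting after the data were seen.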
